A study of Mus musculus with 60 samples.

Results

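Nascent transcription was measured in mouse embryonic stem cells (ESCs) 4 h after a loop-anchoring-defective form of CTCF was degraded. The cells are E14 ESCs of the genotype GFP-FKBP12F36V-Ctcf (Y226A/F228A), here called CTCF YF-AA. In them the endogenous Ctcf gene carries both substitutions, and GFP with an FKBP12F36V degron is fused to the N terminus of the protein. The comparison used 2 libraries of cells given 200 nM dTAG13, the compound that sends FKBP12F36V fusions to the proteasome, for 4 h and 2 control libraries of the same line. The controls therefore carry the tag and both substitutions as well, and the comparison addresses loss of the mutant protein and not the substitutions themselves. A further 2 libraries, taken 2 h after the same dose, share these controls. The line was made by genome editing and selected as a clone, so what is particular to that clone cannot be told apart from the genotype. The members described here are the 14280 transcripts, of 27665 in the count table, whose mean count exceeded 20 in the control or the 4 h group. Most genes are represented by 1 transcript, and 9368 of the 14280 transcripts, hereafter called genes, had a mean above 15 TPM (counts scaled for the length of the counted gene body and for library size), the limit above which the study treats a gene as expressed.

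CTCF is a DNA-binding protein with a row of zinc fingers that recognises a long asymmetric motif. It is best known for stopping the cohesin ring while cohesin extrudes chromatin loops, so that loops come to be anchored between CTCF sites. A short segment of the CTCF N terminus docks onto cohesin, and the tyrosine and phenylalanine that are changed to alanine in CTCF YF-AA sit in that segment, so the mutant still binds DNA but does not hold cohesin. CTCF also sits close to the start sites of many genes, and a degron lets its effect there be followed within hours.

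In EU-seq, 5-ethynyl uridine is given to living cells and only the RNA made during a short pulse is recovered and sequenced, so the values follow recent transcription. The control libraries held 4027449 and 10401709 counts, the 4 h libraries 7114259 and 9459334 counts, and the 2 h libraries 4275802 and 9061772 counts, so control replicate 1 was the shallowest library of the comparison. Replicates correlated at 0.989 (control) and 0.992 (4 h) on log2 CPM (read counts scaled for library size only, by TMM), and no replicate pair was identical within sampling noise. The study describes its replicates as biological, and the labels do not say how the cultures were divided, so p-values measure the spread between these libraries. Ctcf itself, at chromosome 8, positions 105636579 to 105682922 of GRCm38, had 305 and 297 CPM in the control libraries and 302 and 310 CPM at 4 h. The groups overlapped, and with an adjusted p of 0.896 (edgeR) no change of the Ctcf RNA was detected, which does not test the labels because the degron acts on the protein. The 5 ESC markers Pou5f1, Nanog, Sox2, Esrrb and Zfp42 summed to 3292 and 3394 CPM in the controls. At 4 h they summed to 2922 and 2978 CPM. All 5 were lower at an adjusted p below 0.05 (edgeR), by small log2 differences of -0.25 to -0.11, against 3.40% of all genes tested. None of the mesoderm markers T, Mixl1 and Mesp1 had a mean count above 20 in either group, so none was tested.

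The promoters of several genes that fell at 4 h held the letters of the CTCF motif core. The 12-letter pattern, which reads C, C, any base, C, any 2 bases, G, G, any base, G, G, C, was searched on both strands of the 250 bases before each start site, the start being that of the counted transcript in GENCODE M21. The sequences below are the 150 bases before the start on the gene's own strand, written 5′ to 3′, with the matching letters in capitals. They are shown because these 8 genes were called lower at 4 h and held the letters in the direction of transcription, and they show how near the start the letters lie. Their positions on GRCm38, with the strand of the gene, were chr4:126321704-126321853 (minus) for Adprhl2, chr2:158361511-158361660 (minus) for Snhg17, chr9:30426958-30427107 (plus) for Snx19, chr6:47835545-47835694 (plus) for Zfp398, chr14:21848978-21849127 (minus) for Comtd1, chr5:135078267-135078416 (minus) for Vps37d, chr11:4135052-4135201 (plus) for Rnf215 and chr15:8099192-8099341 (minus) for Wdr70.
Adprhl2: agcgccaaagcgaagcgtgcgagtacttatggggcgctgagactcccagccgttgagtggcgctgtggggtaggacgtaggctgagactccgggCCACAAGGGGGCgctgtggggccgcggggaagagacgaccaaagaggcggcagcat
Snhg17: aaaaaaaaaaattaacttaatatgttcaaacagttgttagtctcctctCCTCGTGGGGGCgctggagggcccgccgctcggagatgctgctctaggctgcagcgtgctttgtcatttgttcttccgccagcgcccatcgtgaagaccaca
Snx19: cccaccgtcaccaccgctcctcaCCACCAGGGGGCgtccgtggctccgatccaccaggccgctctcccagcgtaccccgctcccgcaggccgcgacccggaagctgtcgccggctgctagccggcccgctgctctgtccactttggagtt
Zfp398: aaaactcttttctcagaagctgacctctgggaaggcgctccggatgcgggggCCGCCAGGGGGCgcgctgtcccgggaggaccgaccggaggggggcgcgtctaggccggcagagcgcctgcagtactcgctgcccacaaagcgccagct
Comtd1: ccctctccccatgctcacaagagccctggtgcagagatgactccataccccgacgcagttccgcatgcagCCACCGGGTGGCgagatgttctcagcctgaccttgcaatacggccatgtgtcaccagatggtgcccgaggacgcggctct
Vps37d: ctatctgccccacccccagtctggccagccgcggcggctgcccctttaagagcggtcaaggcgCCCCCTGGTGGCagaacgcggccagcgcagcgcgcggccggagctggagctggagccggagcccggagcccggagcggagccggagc
Rnf215: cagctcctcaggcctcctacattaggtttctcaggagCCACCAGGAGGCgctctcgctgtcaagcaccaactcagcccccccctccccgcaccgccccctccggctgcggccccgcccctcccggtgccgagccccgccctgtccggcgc
Wdr70: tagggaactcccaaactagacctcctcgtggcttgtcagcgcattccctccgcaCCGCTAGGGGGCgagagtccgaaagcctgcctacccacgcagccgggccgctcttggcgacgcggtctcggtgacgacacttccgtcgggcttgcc
The centre of the letters lay 50 bases before the start in Adprhl2 and 121 bases before it in Snx19, with the other 6 genes in between. Each of the 8 windows held the pattern once on the gene strand. Vps37d (mean 4.18 CPM in the controls and 1.39 CPM at 4 h) and Rnf215 (6.48 and 2.12 CPM) rested on few reads.

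Loss of CTCF YF-AA for 4 h lowered more genes than it raised. At an adjusted p below 0.05 (edgeR quasi-likelihood test, Benjamini-Hochberg over the 14280 genes), 713 genes passed, of which the larger part fell (3.40% of all tested) and the rest rose (1.60%). Requiring in addition at least a 2-fold change after subtraction of the median over expressed genes, 113 genes were called lower (0.791% of those tested) and 34 were called higher (0.238%), in all 1.03%. Lower genes thus made up 76.9% of the calls. In all 113 and all 34 the control and 4 h libraries did not overlap, against 21.9% of all genes tested that did not overlap in the lower direction and 22.7% in the higher direction. The genes were called on these same libraries, so the separation follows largely from the selection and is given as a description. Among expressed genes, 59 were called lower and 9 higher. The genes next to the 2-fold limit were Rab12, called with a log2 difference of -1.0007, and Pigo, not called with -0.9989.

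**Figure D1:**
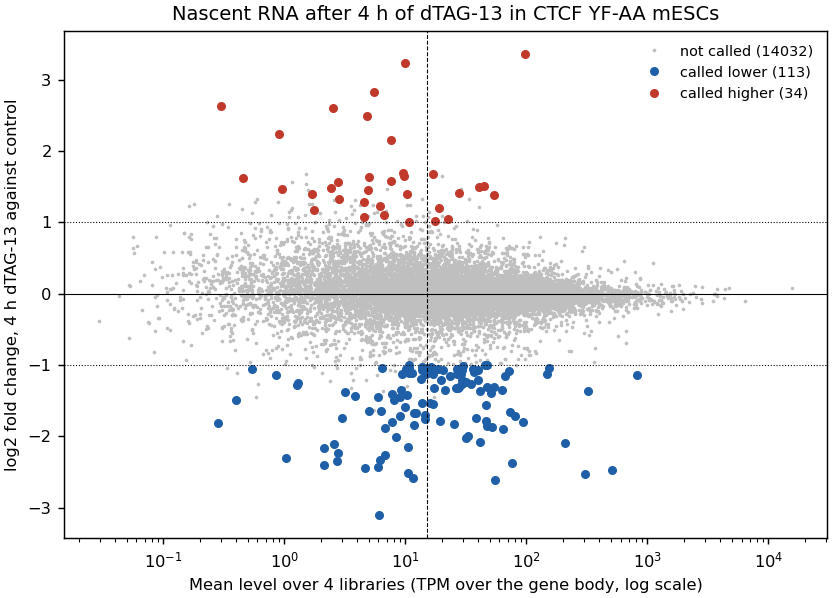
Each point is 1 transcript with a TPM value, with its mean TPM over the 4 libraries on a log axis across and its log2 difference, 4 h minus control, upward (dashed line at 15 TPM, dotted lines at 2-fold). The 113 genes called lower (blue) reach -3.10 and the 34 called higher (red) reach 3.35, while the transcripts not called (grey) crowd around 0.

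The largest decrease among expressed genes was that of Adprhl2, which encodes a hydrolase that removes ADP-ribose from serine residues. It lies on chromosome 4, positions 126316047 to 126321703, and had 23.5 and 31.8 CPM in the control libraries against 5.74 and 3.69 CPM at 4 h. Both treated libraries lay far below both controls, and the log2 difference was -2.62 ± 0.22 (SE, n = 2 and 2, edgeR adjusted p = 2.58e-14), a 6.13-fold decrease. Snhg17, a noncoding host of small nucleolar RNAs on chromosome 2 (158355307 to 158361510), went from 173 and 168 CPM to 30.2 and 28.4 CPM. The replicates were nearly equal within each group, and the difference of -2.53 ± 0.09 (edgeR adjusted p = 2.84e-30) was large against its error. Gm23925, with a log2 difference of -2.47, lies wholly inside Snhg17 on the same strand, so that reads of the one are counted in the other and it is no separate result.

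Nle1, an assembly factor of the large ribosomal subunit on chromosome 11 (82900768 to 82908411), had 46.5 and 55.4 CPM in the controls and 10.8 and 9.28 CPM at 4 h. Its log2 difference was -2.37 ± 0.15 (edgeR adjusted p = 3.5e-18), and the groups were separated by more than the range within either. Mrps2, a protein of the small mitochondrial ribosomal subunit, fell from 48.0 and 61.7 CPM to 11.2 and 14.7 CPM, a log2 difference of -2.09. Tab1, which activates the kinase TAK1 in cytokine signalling, fell from 80.8 and 73.0 CPM to 16.1 and 20.7 CPM, with a log2 difference of -2.03 ± 0.12 (edgeR adjusted p = 2.44e-19). In each of these 3 genes both treated libraries were below both controls.

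The remaining expressed genes with the largest decreases ranged from -2.08 to -1.79 on the log2 scale. They were 1700021F05Rik (-2.08), Ttc5 (-1.99), Cdkn2aipnl (-1.90), Zbtb39, a zinc-finger protein with a BTB domain (-1.87), Dph7, an enzyme of diphthamide synthesis (-1.86), Saal1 (-1.82), Gm5741 (-1.81) and Gm47889 (-1.79). Saal1 shows the pattern, with 50.8 and 50.5 CPM in the controls and 14.4 and 14.03 CPM at 4 h. 1700021F05Rik lies within Gm47889 on the opposite strand, and because these libraries carried no strand information the reads of both genes cannot be told apart. Gm5741 rested on few reads, 3.75 and 2.61 CPM falling to 0.980 and 0.738 CPM. Its call at an edgeR adjusted p of 0.0285 was not kept with DESeq2 (adjusted p = 0.322). Below 15 TPM, the largest decreases were those of Mrpl23, a protein of the large mitochondrial ribosomal subunit, from 5.50 and 3.48 CPM to 0 and 0.844 CPM (log2 difference -3.10), of Dennd6b (-2.59) and of Man2b2, a mannosidase (-2.52). The single library of Mrpl23 with no count could hold up to 0.420 CPM, the level of 3 counts. The log2 difference of Mrpl23 was -2.30 without 4 h replicate 1 and -7.92 without 4 h replicate 2.

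Gm37933, a long intergenic noncoding RNA, had the largest increase. It lies on chromosome 3 (86142757 to 86145545), and its level went from 1.25 and 3.09 CPM in the controls to 25.8 and 26.2 CPM at 4 h. The control libraries were near the level of a few reads and the treated ones far above, with a log2 difference of 3.35 ± 0.25 (edgeR adjusted p = 7.14e-16), a 10.2-fold increase. The difference was 4.36 without control replicate 2, and the gene passed the count filter through the 4 h group alone. Its start lies 55 bases from that of Rps3a1, a ribosomal protein gene on the other strand, whose log2 difference was -0.14 with an edgeR adjusted p of 0.25. Nfkbie, which encodes the NF-κB inhibitor IκBε, rose from 8.50 and 9.48 CPM to 24.4 and 27.4 CPM. Its groups were well separated, and the log2 difference was 1.51 ± 0.18 (edgeR adjusted p = 7.76e-09).

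Tmem151b, whose gene lies next to Nfkbie on chromosome 17, rose from 3.5 and 3.0 CPM to 12.04 and 8.44 CPM, a log2 difference of 1.68. The other expressed genes with large increases were E130018N17Rik (1.498) and Gm14235 (1.41), which overlap on the same strand and share reads, 4930401G09Rik (1.38), Ccdc136 (1.197, with a second transcript of the gene at 1.02) and Kptn, a subunit of a complex that tethers a regulator of mTORC1 to the lysosome (1.04). Of these, E130018N17Rik and 4930401G09Rik passed the count filter through the 4 h group alone. Gm13832 covers 72.1% of 4930401G09Rik on the opposite strand, so in these libraries their reads cannot be told apart there. Below 15 TPM the largest increases were those of Parp3, an ADP-ribosyltransferase of the DNA break response, from 1.00 and 0.484 CPM to 6.44 and 5.80 CPM (log2 difference 3.23), of the neuropeptide precursor Vgf (2.83) and of Entpd1, an ectonucleotidase (2.63). The controls of these 3 genes were near the level of 3 counts, which is 0.75 CPM in control replicate 1 and 0.290 CPM in control replicate 2, and the genes passed the count filter through the 4 h group alone. Their folds therefore rest on few reads and have no firm order, and without control replicate 2 Parp3 had 2.59 and Entpd1 3.702. The call was lost with DESeq2 for E130018N17Rik, 4930401G09Rik, Kptn, Mrpl23 and Entpd1.

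**Figure D2:**
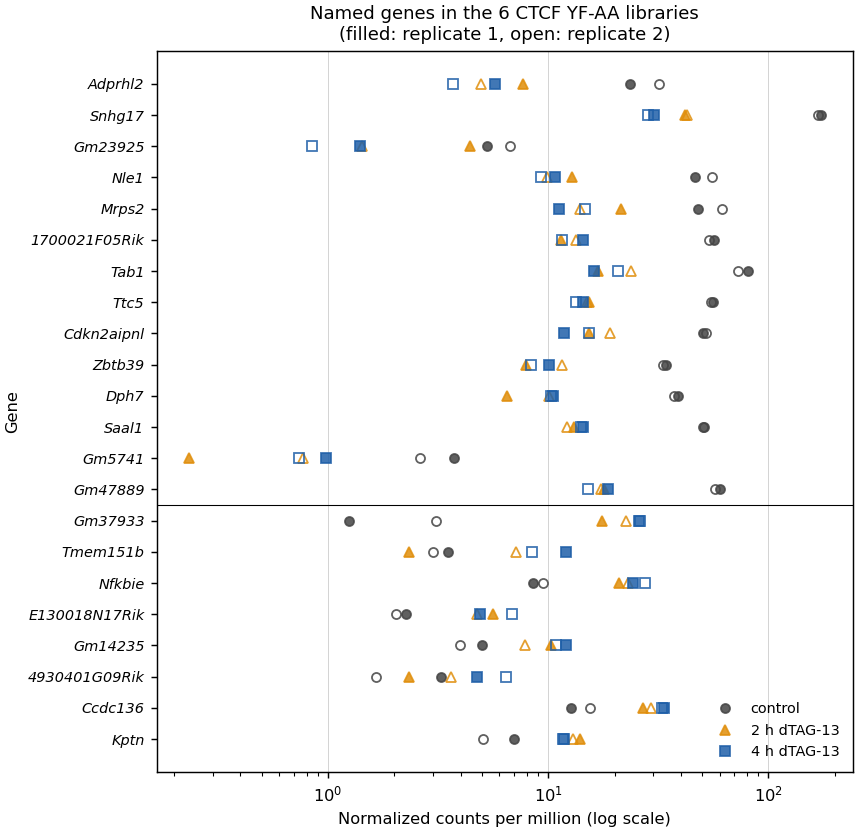
Normalized CPM of the named expressed genes, 1 row per gene on a log axis, with circles for control, triangles for 2 h and squares for 4 h (filled, replicate 1, and open, replicate 2), and genes that were called lower above the line and higher below it. In Adprhl2, Snhg17 and Nle1 both the 2 h and the 4 h points lie below both controls, and in Gm37933 they lie above.

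Sorted by fold change alone, with no test, 394 of the 9368 expressed genes were at least 1.3-fold lower and 304 at least 1.3-fold higher at 4 h. Of the lower genes, 62 exceeded 2-fold, 111 lay between 1.5-fold and 2-fold and 221 between 1.3-fold and 1.5-fold. Of the higher genes, 19 reached 2-fold, 83 lay between 1.5-fold and 2-fold and 202 between 1.3-fold and 1.5-fold, while 8047 genes changed by less than 1.2-fold. Which direction held more genes depended on control replicate 2, the deeper control, and on the expression threshold. Without that library 546 genes were at least 1.3-fold lower and 579 at least 1.3-fold higher, 55 of them at least 2-fold higher, and with no expression threshold 882 were lower and 998 higher. The gene bodies of the changed classes were shorter than those of the 8047 genes, whose median was 20.0 kb. The medians were 10.1 kb for the genes over 2-fold lower and 2.03 kb for those at least 2-fold higher. In these classes 59 of the 62 lower genes but only 9 of the 19 higher genes passed the edgeR test. The called genes, taken with no expression threshold, had longer medians of 17.5 kb (lower) and 15.9 kb (higher), still below that of all genes tested. TPM scales counts for body length, so short genes reach 15 TPM on fewer reads. How far this accounts for the short bodies was not tested.

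The 113 genes called lower were mostly ordinary coding genes. Of them, 107 (94.7%) were protein coding, against 94.4% of all genes tested. Only 2 of the 113 (1.77%) had another counted gene starting within 1 kb upstream on the other strand, namely Krtcap2 beside Trim46 and Alg5 beside Exosc8. Of all genes tested, 12.2% had one. Of the 34 genes called higher, 4 (11.8%) had such a neighbour: Gm37933 beside Rps3a1, Parp3 beside Rrp9, Entpd1 beside Tctn3 and Grk4 beside Nop14. None of the 4 neighbours passed the edgeR test, with log2 differences from -0.16 to 0.06. More than 50% of the gene body was covered by another counted transcript in 16 of the 113 (14.2%) and in 3 of the 34 (8.82%), near the 12.2% of all genes tested. Any overlap was present in 31 of the 113, 8 of the 34 and 4082 of the 14280 genes tested. With every gene that overlaps another counted transcript left out, 82 were called lower and 26 higher.

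The letters of the CTCF core occurred in a larger share of the promoters of genes called lower than of all promoters. On the gene strand they were found in 18 of 113 (15.9%, exact 95% interval 9.72 to 24.002), against 448 of 14179 promoters of genes tested (3.16%) and 2.11% of the 27442 promoters of all counted transcripts. On the other strand they were found in 12 of 113 (10.6%), against 2.70% of genes tested. Among the 34 genes called higher no promoter held them on the gene strand, which allows a share of up to 10.3% (exact 95% bound), and 1 (2.94%) held them on the other strand. Where present upstream of a gene called lower, the letters lay a median of 78.5 bases before the start, and 90 bases over all genes tested. A looser pattern that also allows any base at the fourth letter, and so contains the first, gave 31.9% against 8.67%. In the 250 bases after the start the shares were 4.42% and 2.67%. The base composition of the windows was much alike, with median GC contents of 58.4% and 59.2%. A match of letters describes the sequence and does not show binding.

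By fold class the share on the gene strand was 17.7% of the 62 genes over 2-fold lower, 13.51% of the 111 between 1.5-fold and 2-fold lower, 4.07% of the 221 between 1.3-fold and 1.5-fold lower and 2.91% of the 8047 genes with less than a 1.2-fold change. It was 0.495% of the 202 genes between 1.3-fold and 1.5-fold higher, 4.82% of the next class, and 0 of the 19 genes at least 2-fold higher, which allows up to 17.6%. Adprhl2 and Snhg17, printed above, held the letters on the gene strand, whereas Nle1, Mrps2, Tab1 and Ttc5 did not hold them on either strand of this window.

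**Figure D3:**
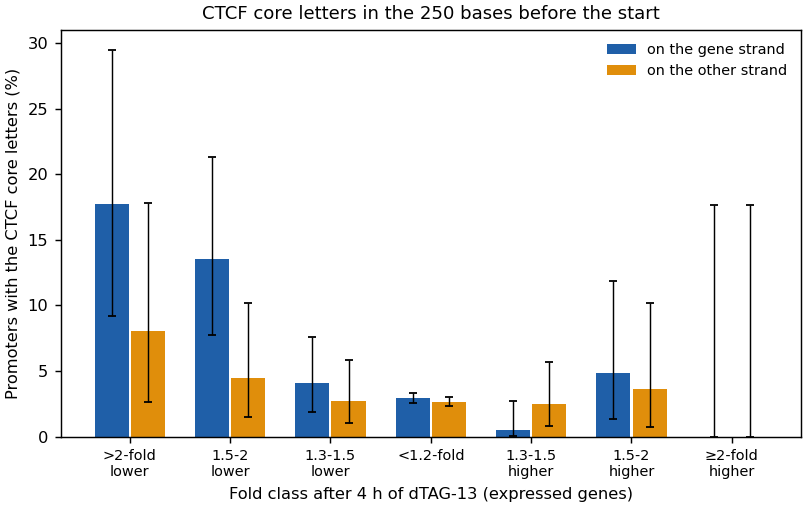
Percent of promoters with the CTCF core letters in the 250 bases before the start, on the gene strand (blue) and on the other strand (orange), by fold class of expressed genes at 4 h, with exact 95% intervals as error bars. The share on the gene strand is highest, at 17.7%, in the class over 2-fold lower, where the interval starts at 9.20%.

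Of the 18 genes that the study names as activated by CTCF, all 18 fell, 12 of them by at least 2-fold, with a median log2 difference of -1.29 against 0.01 over all genes tested. These 18 were chosen by the study with these libraries among its data and are no independent evidence of direction. Polr2c, a subunit of RNA polymerase II, is one of them, with 58.3 and 57.5 CPM in the controls and 20.3 and 18.9 CPM at 4 h (log2 difference -1.56). Of 5 genes that the study names as repressed by CTCF, 4 rose: Ocel1 (0.67), Lsm11 (0.65), Mrps16 (0.53) and Kctd6 (0.46). Mlst8 had 0.09 and did not pass. The same remark on their choice applies.

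The lists that follow are counts by adjusted p, to be read against the 3.40% of all genes tested that fell and the 1.60% that rose. Among 57 subunits of RNA polymerases and Mediator, 3 fell, namely Polr2c, Polr3a, the largest subunit of RNA polymerase III (-0.95), and Polr2j (-0.50), and Med14 rose (0.53). Of 78 mitochondrial ribosomal protein genes 3 fell and 1 rose, the ones that fell being Mrpl23, Mrps2 and Mrps7 (-0.46). Of 82 cytosolic ribosomal protein genes 6 fell, with Rpl36 called at -1.36, from 21.001 and 19.3 CPM to 7.42 and 8.02 CPM, and Rpl36a (-0.97), Rplp0 (-0.69) and Rpl5 (-0.60) next, while Rps14 rose (0.37). Of 45 ribosome biogenesis factors 4 fell, which were Nle1, Bysl (-0.86), Nob1 (-0.66) and Rrp1 (-0.41). The proteasome list had 2 of 45 members lower, Psmd6 (-0.87) and Psmd1 (-0.30), and the aminoacyl-tRNA synthetases 3 of 36, led by Aars2 (-0.58). The medians of these 6 lists lay between -0.07 and 0.02. In each list most members did not pass the test, and the counts for the polymerases and Mediator, the mitochondrial ribosome and the proteasome lay near the shares of all genes.

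The clustered protocadherins, cell-surface adhesion proteins whose promoters are known CTCF sites, were an exception in that every tested member fell. All 21 of the 21 tested genes, each of the gamma cluster, passed, with a median log2 difference of -0.82 and a range from -1.07 to -0.41. Pcdhga1 had 175 and 178 CPM in the controls and 81.7 and 86.0 CPM at 4 h, with the groups far apart. The gamma genes share their last exons and their counted bodies overlap, so reads of one are counted in others and the 21 are not separate results.

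Genes of the CTCF and cohesin machinery were not detectably changed. None of 21 passed (edgeR), the extremes being Ctcfl, the germline paralogue of CTCF (-0.79, adjusted p = 0.090), and Esco1 (0.12). Against the same 3.40% of all genes that fell and 1.60% that rose, of 20 naive pluripotency genes 6 fell slightly, from Tbx3 (-0.26) and Zfp42 (-0.25) to Esrrb (-0.11), and of 10 tested formative genes Tcf15 (0.78) and Grhl2 (0.59) rose. Pou5f1 shows the size of these changes, with 197 and 214 CPM in the controls and 176 and 183 CPM at 4 h, groups that did not overlap and lay close together. Markers of other lineages were low, the primitive endoderm markers summing to 41.5 and 43.9 CPM in the controls and to 40.9 and 38.2 CPM at 4 h with Pdgfra lower (-0.88). Of 7 tested genes near enhancers that the study names, Sik1 (-0.35), Sox2 (-0.21) and Epha4 (-0.18) fell. In ESCs depleted of the cohesin subunit RAD21 the same 3 genes had log2 differences of -1.48, -0.38 and -0.57. The 4 genes named by the study for upstream antisense transcription did not pass, with log2 differences of -0.16 to 0.02. These counts cover the bodies of the named genes and do not measure antisense RNA upstream of their starts. Rps3a1 is among the 4, and Gm37933, which starts 55 bases from it on the other strand, had 3.35. No gene passed among 53 clustered histone genes, 13 stress genes and 10 immediate early genes, and Gdf15 (-1.21) and Cdkn1a (-0.46) fell among 21 p53 targets. Peg10 (-0.52) alone fell among 16 imprinted genes.

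The genes called at 4 h were set beside depletions in other ESC lines that share no library with them. In the line GFP-AID-Ctcf (CTCF-AID), in which CTCF without the substitutions carries an auxin-inducible degron, 500 uM of the auxin IAA was given for 6 h (4 libraries and 4 controls). Of the 113 genes called lower, 112 were tested there, 111 had a log2 difference below 0 and 70 were called lower (62.5%, exact 95% interval 52.9 to 71.5), against 0.890% of all genes tested in that comparison. The 70 made up 50.4% of the 139 genes called lower there, and the median log2 difference of the 112 was -1.34. Vps37d was the exception in sign, at 0.16. Of the 34 genes called higher, 30 had a log2 difference above 0 and 12 were called higher (35.3%), against 0.564% of all tested. Across 8492 genes expressed in both, Pearson's r of the log2 differences was 0.511 and Spearman's rho 0.254, given as a description since genes are not independent replicates. The interval of the share above treats genes as independent, although some share reads, and does not measure the spread between libraries.

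Beside each other, the log2 differences of named genes in both lines were as follows. Adprhl2 had -2.62 in CTCF YF-AA and -2.19 in CTCF-AID, Nle1 -2.37 and -2.33, Tab1 -2.03 and -1.80, and Gm37933 3.35 and 4.29. Gm47889 had -1.79 and -0.74, the latter with an edgeR adjusted p of 0.274, and it shares reads with 1700021F05Rik in the CTCF YF-AA libraries. In the strand-keeping libraries of the line with truncated CTCF described next, after loss of both proteins, Gm47889 had 0.32 (edgeR adjusted p = 0.497) and 1700021F05Rik -1.79. By fold class at 4 h, the median log2 difference in CTCF-AID was -1.13 for genes over 2-fold lower, -0.52 and -0.16 for the next classes, 0.00 for genes under 1.2-fold, and 0.20, 0.21 and 1.11 for the classes going up.

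In another line both Ctcf alleles are truncated, one lacking the N terminus and fused to BromoTag, the other lacking the C terminus and fused to the FKBP12F36V tag (bTAG-ΔN-CTCF/dTAG-CTCF-ΔC). There, 100 nM AGB1 with 100 nM dTAG13 for 2 h removed both proteins, and each compound was also given alone, with 2 libraries per group and 2 shared controls. Of the 113 genes called lower in CTCF YF-AA, 97 were tested after both compounds, 95 had a log2 difference below 0 and 53 were called lower (54.6%), against 0.633% of all genes tested. The 53 were 60.9% of the 87 called there, and the median was -1.05. With AGB1 alone, which removes the protein without the N terminus, the median was -0.80 and 36 of 97 were called (37.1%, against 0.316%). With dTAG13 alone, which removes the protein without the C terminus, the median was -0.02 and 0 of 99 were called. In that comparison 0 genes of 13618 were called and 530 had an unadjusted p below 0.05 (edgeR). Of the 34 genes called higher, 24 were tested after both compounds and 4 of these were called higher there, against 0.175% of all genes tested.

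Depletion of RAD21 in GFP-AID-Rad21 ESCs (500 uM IAA for 4 h, 12 libraries and 12 controls) shifted the same genes little on average. Of the 113 called lower, 112 were tested, with a median log2 difference of 0.10 and 35 of them below 0. At an adjusted p below 0.05 (edgeR) 24 of the 112 were lower, against 27.4% of all genes tested. With the 2-fold limit added, 2 were called lower and 3 higher, against 0.585% and 0.261% of all genes tested. The 2 were Gprc5b, a membrane receptor (-1.12 in CTCF YF-AA and -1.03 after RAD21 loss), and Itga9, an integrin subunit (-1.74 and -1.04). The 3 were Col27a1 (-2.40 and 1.17), Ptpru (-2.31 and 1.84) and Gm26812 (-2.43 and 2.14). Of the 34 genes called higher, 27 were tested after RAD21 loss and none of these was called higher there. At an adjusted p below 0.05 (edgeR) 14 of the 27 were higher, against 31.0% of all genes tested. Of the 27, Tmem151b (-1.35) and Gpr139 (-1.01) were called lower there. Nfkbie, raised in CTCF YF-AA, had -0.89. Across 8760 genes expressed in both, Pearson's r was 0.0196.

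**Figure D4:**
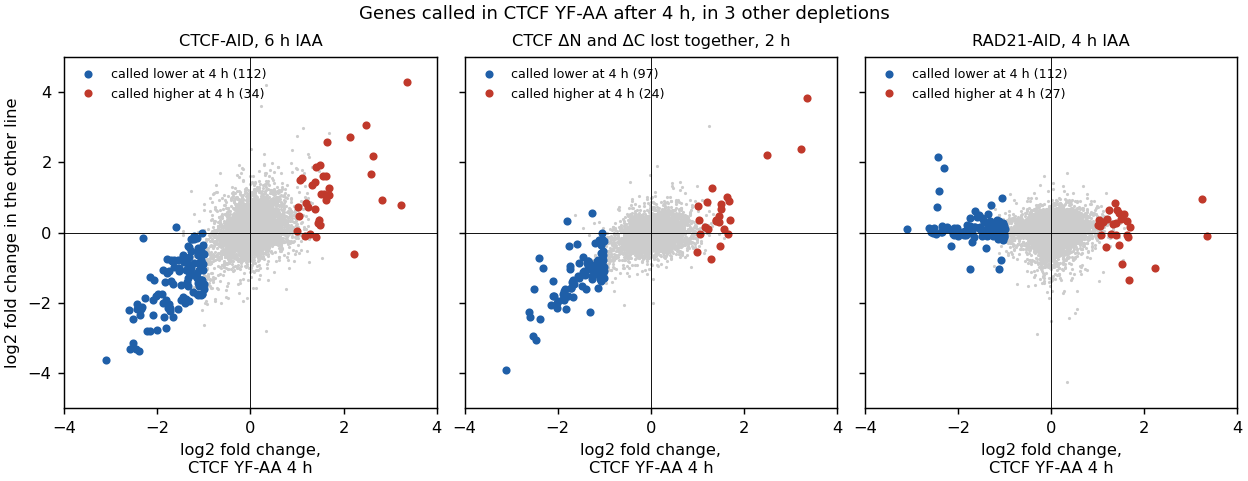
Log2 difference of each gene at CTCF YF-AA 4 h across against its log2 difference in CTCF-AID, in the line with both truncated CTCF proteins removed, or in RAD21-AID upward, with genes called lower at 4 h in blue, called higher in red and all others in grey. The blue points have medians of -1.34 and -1.05 in the first 2 panels and lie around 0.10 in the RAD21 panel.

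The difference between the CTCF YF-AA and the CTCF-AID effects was tested directly in 1 model over both lines. Among 15775 genes none was called (edgeR), and none passed an adjusted p of 0.05, while 970 had an unadjusted p below 0.05 and DESeq2 called 9 lower and 11 higher. The CTCF-AID libraries were made with 2 kits, one of them keeping strand, and the biological coefficient of variation of the joint fit was 15.8%, against 4.45% for CTCF YF-AA alone. With only the CTCF-AID libraries made by the kit that CTCF YF-AA shares, 52 genes were called lower and 31 higher (0.321% and 0.191% of 16218), and with same-numbered replicates as a block 76 and 50 were called (0.482% and 0.317% of 15775). Line, tag, compound and time of treatment all differ here and cannot be told apart.

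Several genes of that narrower fit were called in CTCF-AID alone, and the following 3 were chosen after their values were seen. Spry4, an inhibitor of receptor tyrosine kinase signalling, had 48.8 and 52.1 CPM in the CTCF YF-AA controls and 65.1 and 62.6 CPM at 4 h (log2 difference 0.33). In the matching CTCF-AID libraries it had 3.39 and 3.72 CPM without and 0.0680 and 0.616 CPM with IAA (log2 difference over all CTCF-AID libraries -2.79), and it had -4.25 after RAD21 loss. The 2 effects on Spry4 differed by 3.73 ± 0.44 in log2 (edgeR adjusted p = 0.000843 in the narrower fit, 0.298 over all libraries). The CTCF-AID libraries with IAA held few reads of Spry4, so the size of this difference is not firm. Utf1, a pluripotency-associated chromatin protein, had -0.08 in CTCF YF-AA, -1.85 in CTCF-AID and -0.81 after RAD21 loss. Dkk1, an inhibitor of Wnt signalling, had 0.34 in CTCF YF-AA, 4.21 in CTCF-AID and 1.69 after RAD21 loss. Over all libraries the difference between the lines did not pass for Utf1 (edgeR adjusted p = 0.224) or for Dkk1 (edgeR adjusted p = 0.488).

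The 2 h libraries were compared with the same controls, so the values of both times are only set side by side. Of the 113 genes called lower at 4 h, 77 were also called lower at 2 h, with a median log2 difference at 2 h of -1.197. Of the 34 called higher at 4 h, 29 were tested at 2 h and 11 of these were called higher, with a median of 1.22. Of all genes tested at 2 h, 0.664% were called lower, a share that is no yardstick here because the controls are shared. A direct test of 4 h against 2 h, which does not use the controls, called 0 of 14222 genes at 2-fold (edgeR, with 1115 at an unadjusted p below 0.05, and DESeq2 also called 0). Without the 2-fold limit, 14 genes were lower at 4 h than at 2 h (0.0984%) and 4 were higher (0.0281%). Snhg17 was among the former, with 41.7 and 42.5 CPM at 2 h and 30.2 and 28.4 CPM at 4 h (log2 difference -0.53).

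Most of the 14 take part in the synthesis of cholesterol, its regulation or a linked pathway. Hmgcs1, an early enzyme of cholesterol synthesis, had 130 and 132 CPM in the controls, 207 and 216 CPM at 2 h and 165 and 160 CPM at 4 h. The 3 groups did not overlap, with the 4 h libraries between the others. Insig1, which holds back the SREBP activators of these genes when sterols are plentiful, went from 94.8 and 84.3 CPM to 166 and 178 CPM and then to 140 and 137 CPM. A list of 21 enzymes of the pathway was written after these values were seen and is given as a description. At 2 h 16 of the 21 rose, against 1.24% of all genes tested, and at 4 h 9 did, none fell at either time, and the medians were 0.51 and 0.27.

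The same 21 enzymes had a median log2 difference of -0.18 in CTCF-AID after 6 h of IAA, with none passing the test, against 2.01% of all genes that fell there and 1.57% that rose. In the line with truncated CTCF, 12 rose with both compounds (median 0.41, against 2.04% of all genes tested), 6 rose with dTAG13 alone (median 0.29, against 0.0734%) and 0 rose with AGB1 alone (median 0.08, against 0.653%). Members thus rose in the 4 comparisons that used dTAG13, which share controls within each line, and the relation to the compound was not tested. After RAD21 loss 4 rose and 8 fell, with a median of 0.04, against 31.0% and 27.4% of all genes tested. Scap, which escorts SREBP to the Golgi, fell from 78.0 and 84.2 CPM in the CTCF YF-AA controls to 50.5 and 52.0 CPM at 4 h, a log2 difference of -0.67, and it had -0.70 in CTCF-AID and -0.07 with dTAG13 alone in the line with truncated CTCF.

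**Figure D5:**
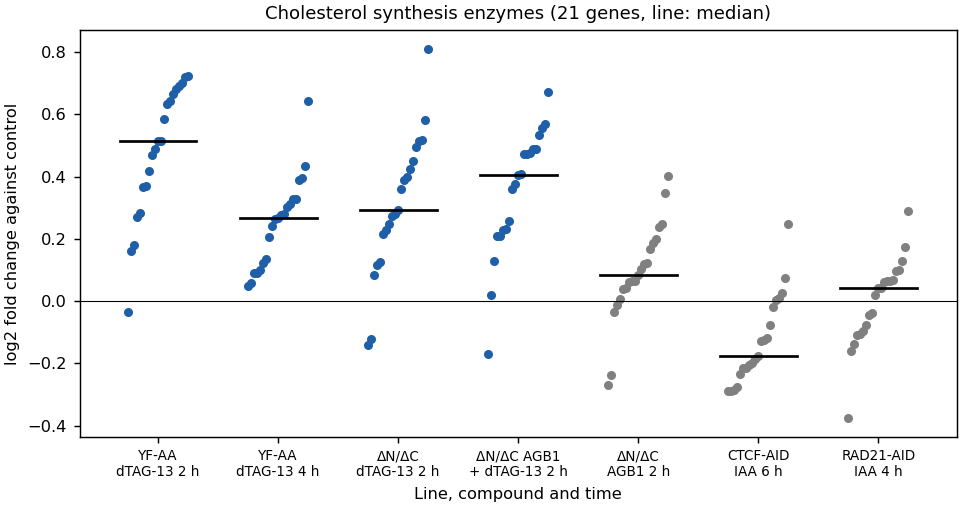
Log2 difference from control of the 21 cholesterol synthesis enzymes in each comparison, with 1 point per gene, sorted within each comparison, the median as a line, and comparisons with dTAG13 in blue and without it in grey. The medians are 0.51 at 2 h and 0.27 at 4 h in CTCF YF-AA, 0.41 and 0.29 with dTAG13 in the line with truncated CTCF, and -0.18 in CTCF-AID.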

How the data were processed

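EU-seq libraries of E14 cells (0.5 mM 5-EU, 20 min pulse) were sequenced by the authors, who trimmed reads with cutadapt, aligned them with BWA to mm10, removed alignments with a mapping quality below 10 (SAMtools 1.4) and reads on rRNA and tRNA, and deposited whole-number read counts over the gene body of a representative transcript, made with HTSeq. The CTCF YF-AA libraries held no strand information. Column names write Y227A where the labels have Y226A, and in the line with truncated CTCF a dTAG13 dose of 200 nM where the labels have 100 nM. All columns of per-sample values in the table were assigned to labelled samples.

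The deposited counts were tested with edgeR 4.0.16 in R 4.3.3 (TMM, quasi-likelihood F test, Benjamini-Hochberg, two-sided) on the libraries of the groups compared, with the library kit as a covariate for CTCF-AID, for transcripts with a mean count above 20 in either group. Log2 differences had the median over expressed genes (-0.01 at 4 h) subtracted, and their SE is the size of the uncentred log2 difference divided by the root of F. A called gene has an adjusted p below 0.05 and at least a 2-fold change. DESeq2 1.42.0 was an alternative, as were RLE normalization, no count filter, a replicate block, leaving out each library, no centring and other limits of expression. The script was tested on simulated counts. Names and positions came from GENCODE M21, which matched 27455 of 27665 transcripts. The authors' counting used a later release. Promoters were read from GRCm38.

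The depth of 4027449 to 10401709 counts per library puts 3 counts at 0.290 to 0.75 CPM. Intervals and floors cover counting error only, and the exact intervals of shares treat genes as independent, although some share reads. Genes were named by rank of fold change among those called and changed alike in both same-numbered pairs (above 15 TPM the top 14 going down and the top 8 going up, otherwise the top 3 each way) with the leading members of the gene lists and Ctcf. The members and lists were chosen with earlier results of these data known, and the sterol lists and the genes named for the difference between lines after their values were seen. No set test was run. Some genes are not reported here.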

Additional observations from a re-analysis of the deposited data

Results flagged for a closer look

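The effects of CTCF YF-AA loss at 2 h and at 4 h differed by a direct test (edgeR, adjusted p below 0.05 over 14222 genes) for 18 transcripts, of which those described here are given as log2 of 4 h minus 2 h. Cholesterol genes made up most of those lower at 4 h: Hmgcs1 (-0.39), Msmo1 (-0.36), Lss (-0.42), Fdps (-0.54), Fdft1 (-0.27) and Cyp51 (-0.35) of the synthesis pathway, the regulator Insig1 (-0.32) and Aacs (-0.41), whose enzyme makes acetoacetyl-CoA. In each of these genes the 2 h libraries had more CPM than the controls and than the 4 h libraries. Gm43738 (-0.41) overlaps Fdps and shares its reads. Snhg17 (-0.53) had fallen further at 4 h. Prkce (-0.95), a kinase gene, had 21.8 and 15.9 CPM in the controls, 17.7 and 16.1 CPM at 2 h and 7.84 and 9.39 CPM at 4 h, so its 2 h libraries lay within the range of the controls. Smad7 (-0.16), an inhibitor of TGF-β signalling, was slightly lower.

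The transcripts higher at 4 h than at 2 h were Mtss1l (0.45), Enox1 (0.25) and both counted transcripts of Ntn1 (0.23 and 0.21), which encode the guidance protein netrin and overlap each other. Ntn1 had 280 and 249 CPM in the controls, 208 and 202 CPM at 2 h and 249 and 231 CPM at 4 h, so the lower level at 2 h was nearer the controls at 4 h. The cause of these differences was not tested.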

How the results depend on the processing

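Of the 28 named genes, 22 kept the call with DESeq2. All 28 kept it with RLE normalization, no count filter, the replicate block, no centring and all 6 CTCF YF-AA libraries in the fit. Fits with a library left out have 1 library in a group, so for the named genes only the direction or size of the difference is taken from them. Counts of called genes from such fits are given as a description. Over all 278 values under the alternatives, 0 reversed. Vgf was not tested without 4 h replicate 2, nor Gm5741 without control replicate 2. DESeq2 called 15 genes higher in place of 34 and 89 lower (87 of the 113), moving the lower share of calls from 76.9% to 85.6%. Leaving out each library gave 96 to 113 genes lower and 23 to 46 higher, the 46 without control replicate 2. With no expression threshold 882 genes were at least 1.3-fold lower, 998 at least 1.3-fold higher, 149 over 2-fold lower and 89 at least 2-fold higher, and with exonic length behind TPM 9 were at least 2-fold higher. Leaving out each library gave 435 to 546, 332 to 579, 62 to 79 and 21 to 55 for these 4 classes, the highest counts of higher genes again without control replicate 2. For 4 h against 2 h the count was 1 lower without the count filter, and 0 to 1 lower and 0 to 4 higher over the libraries left out, the 4 without 2 h replicate 2. The share of genes called lower that were also called in CTCF-AID was 41.3% by adjusted p alone and 57.5% to 67.3% over the libraries left out. The motif share was 31.9% with the looser letters and 4.42% after the start.

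For the difference between CTCF YF-AA and CTCF-AID, with 0 called either way, DESeq2 called 9 lower and 11 higher, no count filter gave 4 and 1, the CTCF-AID libraries of the shared kit alone gave 52 and 31, and the replicate block gave 76 and 50. Leaving out each CTCF YF-AA library kept both at 0. Of these, 35 lower and 24 higher were called in both of the last fits. With the replicate block the 4 h comparison called 118 lower and 41 higher. Same-numbered replicates deviated together by only 0.0468 (control with 4 h) and 0.00205 (2 h with 4 h), so the numbers were not taken as pairs. The causes of these shifts were not tested. With 2 libraries per group and 3 counts at up to 0.75 CPM, folds of genes with a group near that level rest on few reads.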
